A study of Mus musculus with 12 samples.

Results

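Mitochondrial ribosome and complex I genes are the nuclear genes named Mrps, Mrpl or Nduf plus a number, and they were followed here in mouse embryonic stem (ES) cells turned towards a neural fate, with and without doxycycline (Dox). A probe set, the group of short probes that reads a transcript on an Affymetrix array, was taken when its single gene symbol was Mrps or Mrpl followed by digits, or Ndufa, Ndufb, Ndufc, Ndufs or Ndufv followed by digits. This gave 225 of 45101 probe sets, which name 107 of the 18193 genes tested. The 107 genes divide into 26 for the small subunit of the mitochondrial ribosome, 47 for its large subunit, 6 for the core of complex I and 28 for its accessory subunits. Ndufa4 is among the last by its name, although it is now counted to complex IV, and Mrps36 is among the small subunit genes, although it is now counted to the oxoglutarate dehydrogenase complex. Of the 107, 46 had 1 probe set and 61 had several. Mrpl30, Mrpl53, Ndufa11 and Ndufs6 were named only on probe sets shared with another gene and were not analysed here.

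The mitochondrial ribosome translates only the few proteins encoded in mitochondrial DNA, all of them subunits of the respiratory chain or of ATP synthase, while its own proteins are made in the cytosol and imported. Complex I, NADH:ubiquinone oxidoreductase, is where NADH gives its electrons to that chain, and its subunits come from both genomes: the core subunits carry the redox groups or the proton channels, and the accessory subunits surround and stabilise them. Mitochondrial ribosomes descend from bacterial ones, and tetracyclines such as Dox can slow them as they slow those of bacteria. A culture in which Dox switches a transgene on therefore also holds an inhibitor of mitochondrial translation, and the parental line, which has the drug without the transgene, is read first.

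One of the lines used is rtTA-Dmrt5, in which Dox induces Dmrt5 (the transcription factor Dmrta2) through the reverse tetracycline transactivator rtTA, and the other is its parent, rtTA, which holds the transactivator. Both lines were differentiated as monolayers in N2B27 medium, Dox was given or left out from day 5, and RNA was taken at day 7 or day 9, after 2 or 4 days of Dox. The 12 arrays make 6 groups of 2: rtTA at day 7 without Dox, rtTA at day 7 with Dox, and rtTA-Dmrt5 without and with Dox at day 7 and at day 9. Day 9 has no parental arrays, each genotype is 1 line, and no Dox concentration is given in the labels. Nothing in them tells whether the replicates of a group were grown apart, so each p-value weighs a change against the spread of these arrays, which may be technical.

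Values are taken as log2, with larger values for more RNA, and neither is stated in the sources used here. They are centred: each probe set's median over the 12 arrays is 0, so a value is a difference between arrays and not a level. Changes are log2 differences between group means ± standard error (SE), with n = 2 arrays in each group, and "passed the test" means an adjusted p under 0.05 in limma after Benjamini-Hochberg adjustment over all 18193 genes. The number of arrays limits the precision. Array brightness was recovered only as a class from the digits of the values, and 99 of the 107 members (92.5%) lay in the brightest class, a median log2 signal of 8 or more, against 33.1% of all genes. All 8 neural progenitor markers and 11 of 12 pan-neuronal markers were in that class too. Dmrta2, which checks the labels, changed by -2.42 (SE 0.33, limma adjusted p = 0.002) at day 7 and by -2.61 (SE 0.33, limma adjusted p = 0.000498) at day 9 in the rtTA-Dmrt5 arrays labelled +Dox, against the direction an induced transgene would give if the probe set reads it, and the sources used here do not say whether it does. Directions below therefore rest on the labels, and arrays are named by their label, +Dox or -Dox.

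Promoter sequences are shown first, for some of the members that passed the test at day 9. Genes of this kind are known to share promoter motifs for the factors NRF1, GABP (an ETS factor) and YY1. RefSeq promoters of GRCm38.p6, 250 bases before to 50 bases from the annotated start, were matched for 95 of the 107 members. The stretches printed are the 120 bases just before the start, 5′ to 3′ on the gene's strand, of members that passed the test at day 9, where the stretch lies in no annotated gene and holds a searched motif, which is in capitals. They lie upstream of Mrpl3 (chr9:105053148-105053267, plus strand), Mrpl12 (chr11:120484517-120484636, plus), Mrps22 (chr9:98601680-98601799, minus), Mrpl17 (chr7:105811088-105811207, minus), Ndufa8 (chr2:36049339-36049458, minus), Mrpl34 (chr8:71464806-71464925, plus) and Ndufa5 (chr6:24527691-24527810, minus). The last line is the whole gap between the starts of Mrpl46 and Mrps11, which are transcribed away from each other (chr7:78783090-78783130, given on the plus strand), and it holds none of the motifs.
Mrpl3: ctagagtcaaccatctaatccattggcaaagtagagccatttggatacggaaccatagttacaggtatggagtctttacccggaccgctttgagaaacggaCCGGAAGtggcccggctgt
Mrpl12: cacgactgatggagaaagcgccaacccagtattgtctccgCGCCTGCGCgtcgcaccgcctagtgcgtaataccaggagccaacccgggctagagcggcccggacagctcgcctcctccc
Mrps22: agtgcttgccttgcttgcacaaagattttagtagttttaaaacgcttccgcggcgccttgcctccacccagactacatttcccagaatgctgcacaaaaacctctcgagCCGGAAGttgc
Mrpl17: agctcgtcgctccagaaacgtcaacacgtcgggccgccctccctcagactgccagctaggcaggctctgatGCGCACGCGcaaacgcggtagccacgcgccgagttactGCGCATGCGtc
Ndufa8: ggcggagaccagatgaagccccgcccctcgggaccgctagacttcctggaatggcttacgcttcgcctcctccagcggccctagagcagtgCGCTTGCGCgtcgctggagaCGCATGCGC
Mrpl34: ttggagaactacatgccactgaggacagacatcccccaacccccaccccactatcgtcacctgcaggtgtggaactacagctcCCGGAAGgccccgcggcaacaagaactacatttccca
Ndufa5: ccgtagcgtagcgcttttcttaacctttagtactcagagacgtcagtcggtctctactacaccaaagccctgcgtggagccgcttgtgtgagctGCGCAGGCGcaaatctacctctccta
between Mrpl46 and Mrps11: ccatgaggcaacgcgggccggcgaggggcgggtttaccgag

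Mrpl3, Mrps22 and Mrpl34 show the ETS core CCGGAAG, and Mrpl12, Mrpl17, Ndufa8 and Ndufa5 show the NRF1 core GCGCANGCG, in which N is any base, on either strand. Mrpl34 and Ndufa5 fell at day 9 and the other 5 rose, so both motifs stood before genes of either direction. Over the full 300 bases and both strands, the NRF1 core was found in 20.4% of the 103 member promoters, against 6.25% of all 32851 promoters and 9.89% of those of genes on the array. For the ETS core the shares were 25.2%, 8.86% and 13.0%, and for the YY1 core AAGATGGCG they were 10.7%, 1.4% and 2.1%. The letters AAG end the ETS core and open the YY1 core, so these can overlap. The motif of estrogen-related receptors, TCAAGGTCA, was in none of the member promoters and in 0.423% of all. By subgroup, the ETS core was in 34.8% of 23 small subunit, 34.1% of 41 large subunit, 40.0% of 5 complex I core and 7.69% of 26 accessory genes. The NRF1 core was in 13.0%, 26.8%, 0% and 23.1% of them, and the subgroups were not tested against each other. These counts describe letters in a window and show no binding.

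Dox in the parental line was asked about first. At day 7 the mitochondrial ribosome and complex I genes of rtTA cells were close to equal in the arrays labelled +Dox and -Dox: 0 of 107 members passed the test in limma, and so did 0% of all genes. The median member change was 0.0, with a range from -0.13 to 0.30, and 54 of the 107 were above 0. At an unadjusted p under 0.05 there was 1 member, and 925 of all genes. The replicates of the 2 groups lay apart for 7 members in the higher direction and 18 in the lower, where 18.9% and 14.1% of all genes did so.

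The interval of each change says how large a response could have been missed. The 95% confidence interval lay within 1.5-fold in either direction for 106 of the 107 members and within 2-fold for all 107, and its median half-width was 0.21. Medians were 0.0 for the small subunit, 0.01 for the large subunit, 0.04 for the complex I core and -0.02 for the accessory subunits, each beside 0.01 for all genes. Responses smaller than these intervals were not detectable with this number of arrays.

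The 5 members with the smallest p were Mrpl14, Ndufb1, Ndufv2, Mrpl3 and Ndufb10, and each had an adjusted p of 0.93 in limma. Mrpl14, a large subunit protein kept from bacteria, had values of -0.20 and -0.31 labelled -Dox and 0.02 and -0.02 labelled +Dox, a change of 0.25 ± 0.10 with an unadjusted p of 0.0299 in limma. Ndufb1, an accessory subunit of the membrane arm, had 0.02 and 0.16 labelled -Dox and 0.31 and 0.48 labelled +Dox, a change of 0.30 ± 0.15. The replicates of these 2 genes did not overlap between the groups, and both lie in a dimmer class, a median log2 signal of 4 to 8. Ndufv2, an iron-sulphur core subunit of the NADH-binding module, differed by 0.15 ± 0.11 with overlapping replicates. Mrpl3, a large subunit protein near the peptidyl transferase centre, differed by -0.13 ± 0.10, and the accessory subunit Ndufb10 by -0.11 ± 0.08.

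**Figure D1:**
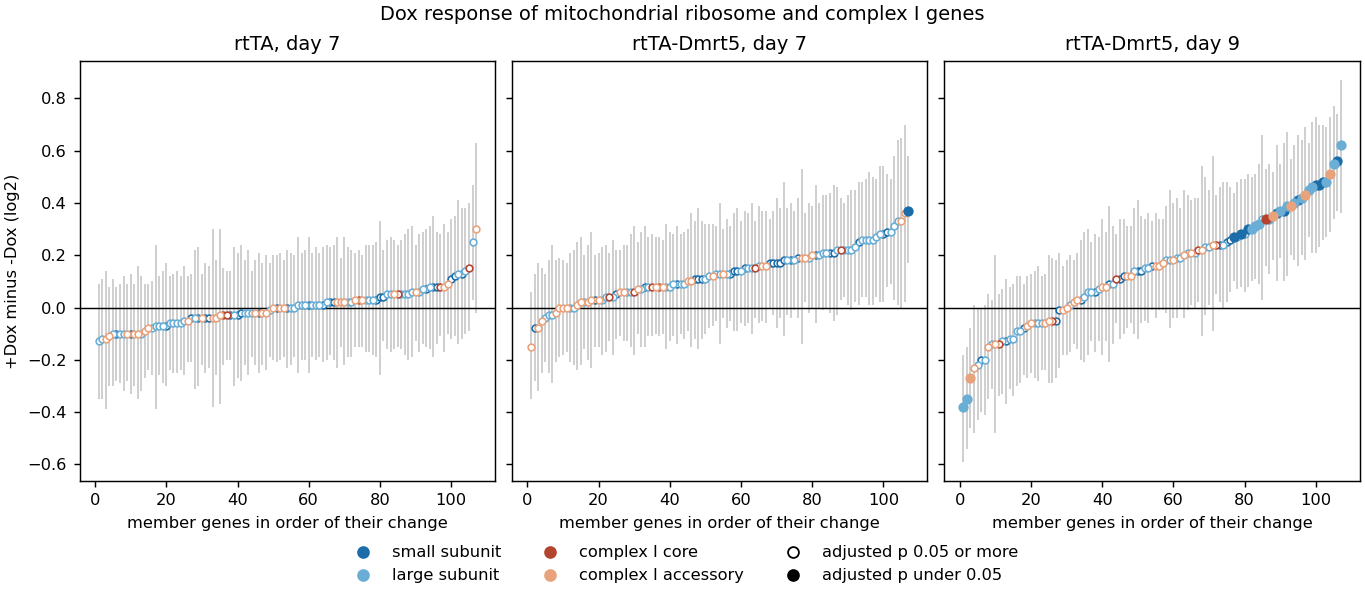
Log2 change (arrays labelled +Dox minus -Dox) of each of the 107 members, ranked within each panel, for rtTA at day 7 and for rtTA-Dmrt5 at day 7 and day 9, with 95% confidence intervals as grey bars and filled points for adjusted p under 0.05. No member is filled in the parental line, 1 is at day 7 and 31 are at day 9, and at day 7 97 of the 107 points lie above 0.

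In the parental line 0 of all 18193 genes passed, so the 0 called genes in each list below follow from that. Other genes of the same pathways were read in lists that were chosen with earlier results of these data known. These were 9 subunits whose names fall outside the rule, 16 complex I assembly factors, 39 subunits of complexes II to V, 29 factors of mitochondrial transcription and translation, 25 genes of the mitochondrial and integrated stress responses, 10 regulators of mitochondrial biogenesis, 16 glycolysis genes and 44 cytosolic ribosomal protein genes. Their median changes lay between -0.06, for the regulators of mitochondrial biogenesis, and 0.04, for the stress responses, beside 0.01 for all genes. Of the transcripts encoded in mitochondrial DNA, ND5 alone could be read. ND5, a complex I subunit made by the mitochondrial ribosome itself, differed by -0.17 in the parental line (limma adjusted p = 0.93).

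In rtTA-Dmrt5 cells at day 7 most members had a small change above 0, and 1 passed the test. The median change was 0.13, against 0.01 for all genes and 0.03 for all genes of the brightest class, and 97 of the 107 members were above 0. Mrps5 was the 1 that rose and 0 fell, while 3.08% of all genes rose and 3.84% fell. At an unadjusted p under 0.05 there were 22 members (20.6%), the share that all genes had (20.5%). The replicates lay apart in the higher direction for 82 members and in the lower for 4, against 31.4% and 25.4% of all genes. In the brightest class they did so for 2465 and 1635 of 6026 genes. By subgroup, the medians were 0.17 for the small subunit, 0.14 for the large subunit, 0.08 for the complex I core and 0.06 for the accessory subunits.

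Mrps5, a small subunit protein of bacterial origin, had values of -0.36 and -0.39 labelled -Dox and -0.05 and 0.05 labelled +Dox in rtTA-Dmrt5 cells at day 7. The change was 0.37 ± 0.09 with a limma adjusted p of 0.0409. Both parental groups were higher than either, at 0.26 and 0.09 labelled -Dox and 0.26 and 0.15 labelled +Dox. The call is at the edge, since leaving out any of the 4 arrays ended it, with adjusted p between 0.116 and 0.253. The next largest differences were in Ndufb4 (0.36, limma adjusted p = 0.218), Mrpl1 (0.33, limma adjusted p = 0.223), Ndufb1 (0.33, limma adjusted p = 0.243) and Mrpl37 (0.31, limma adjusted p = 0.189), and none of them passed.

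Whether the response differed between the lines was tested directly. The rtTA-Dmrt5 response minus the parental response had a median of 0.13 over the members and 0.0 over all genes, and 93 of the 107 members were above 0. None of the 107 passed in limma, where 2.79% of all genes did, and 4 members (3.74%) had an unadjusted p under 0.05, against 16.1% of all genes. The largest differences were 0.40 for Mrpl1 and 0.40 for Ndufb4, followed by 0.36 for Mrpl3 and 0.35 for Mrps5, with limma adjusted p from 0.222 to 0.407. Single members therefore did not separate the Dox responses of the lines at this size of experiment. A p that misses the threshold does not show that the responses were alike.

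The medians per array show which arrays were low or high. Over the 107 members the median was -0.05 and -0.05 in the rtTA-Dmrt5 arrays at day 7 labelled -Dox and 0.03 and 0.06 labelled +Dox. It was 0.02 and 0.04 in the parental arrays labelled -Dox and 0.01 and 0.0 labelled +Dox. The rtTA-Dmrt5 arrays labelled -Dox were the lowest of the day 7 arrays, and those labelled +Dox lay beside the parental ones. At day 9 the medians were -0.09 and -0.07 labelled -Dox and 0.07 and 0.0 labelled +Dox. Between replicates the pooled SD of this median was 0.025.

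**Figure D2:**
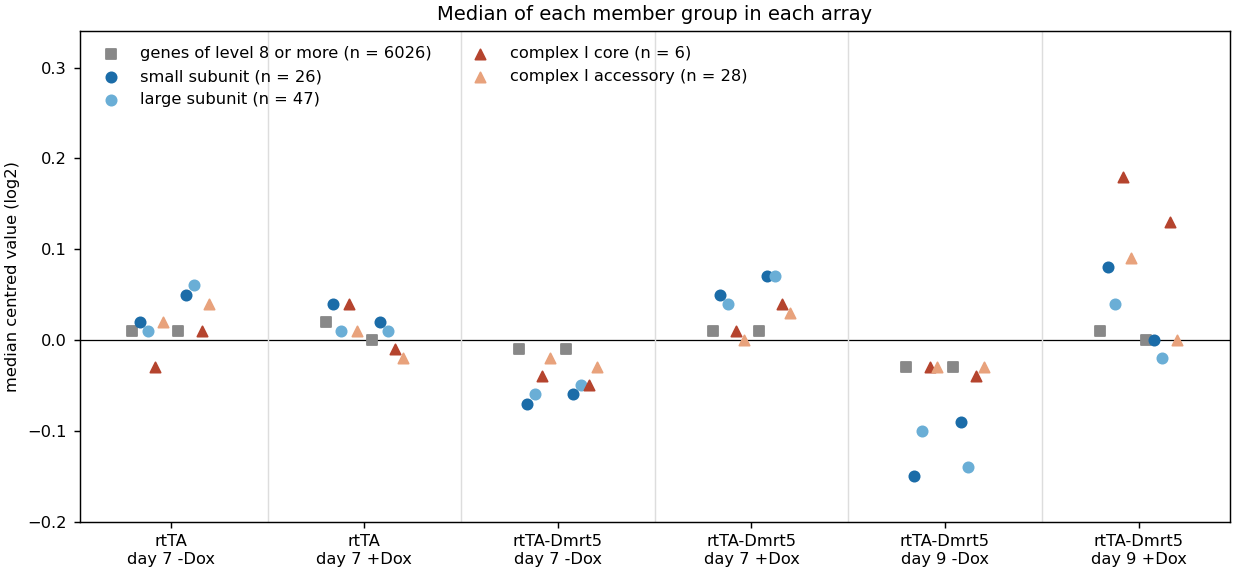
Median centred log2 value of each member subgroup in each of the 12 arrays, with the 6026 genes of the brightest class as grey squares; each group has 2 arrays side by side. The small and large subunit medians lie between -0.05 and -0.15 in the 4 rtTA-Dmrt5 arrays labelled -Dox and between -0.02 and 0.08 in the 4 labelled +Dox, while the 4 parental arrays lie between 0.01 and 0.06.

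At day 9, members of all 4 subgroups passed the test. In rtTA-Dmrt5 arrays labelled +Dox 28 of the 107 members rose and 3 fell, where 16.9% of all genes rose and 11.3% fell. Within the brightest class 24 of 99 members rose (24.2%) and 3 fell (3.03%). Of all genes of that class 21.2% rose, a share near that of the members, and 14.2% fell. At an unadjusted p under 0.05 in limma there were 41 members (38.3%), against 39.3% of all genes. Rises were between 1.21-fold and 1.53-fold, and no member passed with a change of 2-fold or more. The median change was 0.16, against 0.01 for all genes and 0.06 for all genes of the brightest class, and 77 of the 107 were above 0. The replicates lay apart for 62 members in the higher and 15 in the lower direction, against 33.3% and 28.7% of all genes. In the brightest class they did so for 2571 and 1713 of 6026 genes. The count rests on few arrays: it was 12 without replicate 1 and 16 without replicate 2 of the arrays labelled -Dox, 17 without replicate 1 and 35 without replicate 2 of those labelled +Dox. A fit of these 4 arrays alone called 6.

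Small subunit genes had 10 of 26 risen (38.5%) and 0 fallen. Of all genes 16.9% rose and 11.3% fell, and of the brightest class 21.2% and 14.2%. Mrps2, a conserved protein of the small subunit, led them with values of -0.49 and -0.37 labelled -Dox and 0.15 and 0.10 labelled +Dox. Its change was 0.56 ± 0.08 with a limma adjusted p of 0.00105. The day 9 arrays labelled -Dox were the only ones far from the rest for Mrps2, whose other 10 values lay between -0.10 and 0.15. Mrps34, a protein found in mitochondrial but not bacterial ribosomes, went from -0.16 and -0.22 to 0.41 and 0.16, a change of 0.48 ± 0.10 (limma adjusted p = 0.00614). The other 8 that rose were Mrps27, Mrps22, Mrps24, Mrps14, Mrps11, Mrps25, Mrps5 and Mrps23, with changes from 0.47 down to 0.27. Mrps22, whose upstream stretch with an ETS core is printed above, changed by 0.47. The 5 probe sets of Mrps5 changed by -0.15 to 0.70.

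Large subunit genes had 13 of 47 risen (27.7%) and 2 fallen (4.26%), against 16.9% and 11.3% of all genes. In the brightest class the shares were 21.2% and 14.2%. Mrpl46, a protein particular to mitochondrial ribosomes, had the largest change of all members, from -0.52 and -0.54 labelled -Dox to 0.20 and -0.02 labelled +Dox. The change was 0.62 ± 0.12 with a limma adjusted p of 0.00376, and the 2 groups did not overlap. Mrpl3 went from -0.62 and -0.42 to 0.04 and 0.02, a change of 0.55 ± 0.10 (limma adjusted p = 0.00269). Its values rest on the 2 brightest of 4 probe sets, which changed by 0.60 and 0.50, while 2 dimmer ones changed by -0.48 and 0.09, and the mean of all 4 did not pass (0.18, adjusted p = 0.337). Mrpl12, the protein of the flexible stalk that calls translation factors to the ribosome, went from -0.08 and -0.16 to 0.43 and 0.29, a change of 0.48 ± 0.09 (limma adjusted p = 0.00469). For Mrpl12 the day 9 arrays labelled +Dox were the high ones, since its day 7 values in both lines lay between -0.11 and 0.21. The other risen members were Mrpl4, Mrpl44, Mrpl17, Mrpl14, Mrpl37, Mrpl40, Mrpl39, Mrpl19, Mrpl50 and Mrpl49, with changes from 0.46 down to 0.30. Mrpl17 and Mrpl19 each have a dimmer probe set below 0, at -0.08 and -0.24. Mrps9, Mrpl38 and Ndufc2 have a probe set that passed and another of opposite sign, and as genes they did not pass (0.14, 0.24 and 0.0).

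Mrpl34 and Mrpl18 went the other way. Mrpl34, a small basic protein of bacterial origin, had 0.17 and 0.12 labelled -Dox and -0.13 and -0.35 labelled +Dox, a change of -0.38 ± 0.09 (limma adjusted p = 0.013), which was lost without replicate 1 of the arrays labelled -Dox or replicate 2 of those labelled +Dox. Mrpl18, which in ribosomes of this kind contacts the RNA of the central protuberance, had -0.10 and -0.14 labelled -Dox and -0.45 and -0.48 labelled +Dox. The change was -0.35 ± 0.09 (limma adjusted p = 0.0145; 0.0818 without replicate 1 of the arrays labelled -Dox). At day 7 the 2 genes changed by 0.09 or less in rtTA-Dmrt5 cells.

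Complex I gave 5 of the 28 rises and 1 of the 3 falls. Its share of risen genes was not above that of all genes. It was 16.7% of the core and 14.3% of the accessory subunits, against 16.9% of all genes and 21.2% of the brightest class. Of the 6 core subunits 1 rose, Ndufs1, the largest subunit of the NADH-binding module, with -0.11 and -0.05 labelled -Dox and 0.28 and 0.24 labelled +Dox and a change of 0.34. Of the 28 accessory subunits 4 rose and 1 fell. Ndufa1, a small membrane-anchored subunit, went from -0.44 and -0.24 to 0.25 and 0.10, a change of 0.51 ± 0.10 (limma adjusted p = 0.00408). Ndufa8 changed by 0.43, Ndufb9 by 0.39 and Ndufb6 by 0.35. Ndufa5, a subunit of the matrix arm, fell from -0.02 and 0.03 to -0.19 and -0.34, a change of -0.27 ± 0.09 (limma adjusted p = 0.0435), and this call was lost without either array labelled -Dox and without replicate 2 of those labelled +Dox. Whether the subgroups differ from one another was not tested.

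**Figure D3:**
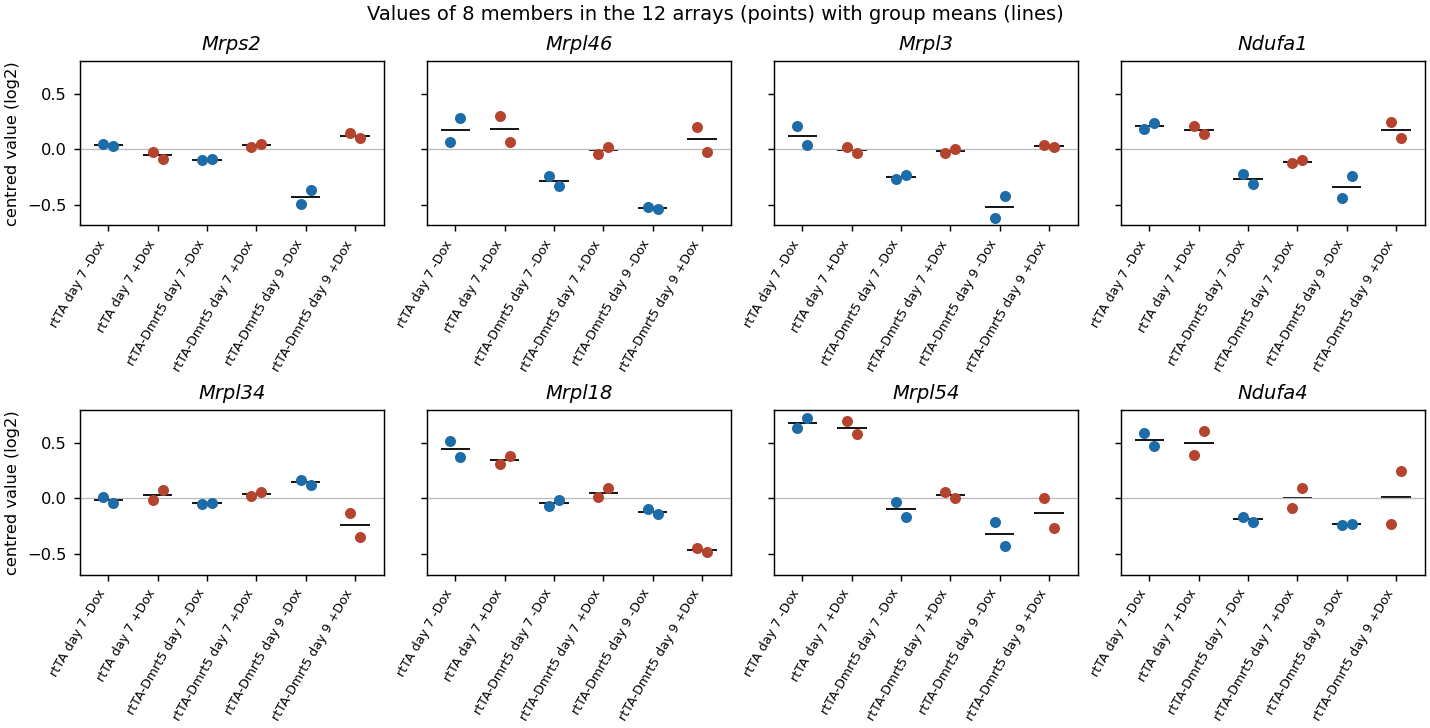
Centred log2 values of 8 members in the 12 arrays, blue points for arrays labelled -Dox, red for +Dox, with lines at group means. Mrps2, Mrpl46, Mrpl3 and Ndufa1 have their lowest group mean in the day 9 arrays labelled -Dox, Mrpl34 and Mrpl18 have it in the day 9 arrays labelled +Dox, and Mrpl54 and Ndufa4 are highest in the 4 parental arrays.

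The 28 members that rose at day 9 had changes between 0.0 and 0.37 at day 7 and between -0.13 and 0.25 in the parental line. The day 9 and day 7 responses share no array. All 28 were above 0 at day 7 before rounding, but 97 of all 107 members (90.7%) were too. The sign at day 7 therefore does not set the 28 apart. A direct test of the day 9 response minus the day 7 response called 0 of 107 members in limma, where 2.34% of all genes passed, with 11 members (10.3%) at an unadjusted p under 0.05, against 18.1% of all genes. Its median over the members was 0.0. The largest differences were for Ndufb4 (-0.50, limma adjusted p = 0.255), an accessory subunit and the only member of the class at 2 to 4, Ndufa5 (-0.47, limma adjusted p = 0.0837), Mrpl34 (-0.47, limma adjusted p = 0.0984), Mrpl18 (-0.44, limma adjusted p = 0.0983) and Mrps2 (0.43, limma adjusted p = 0.0892).

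RNA of marker genes and array controls also differed between the rtTA-Dmrt5 arrays labelled +Dox and -Dox. At day 9, where 16.9% of all genes rose and 11.3% fell, all 9 cell cycle genes rose in the arrays labelled +Dox (median 0.48). Of 12 pan-neuronal genes 9 fell (median -0.83). Risen were 5 of 7 surface epithelium genes (median 1.19), 5 of 7 mesoderm and endoderm genes (median 0.92) and 6 of 8 ES cell genes (median 0.62). Of 8 neural progenitor genes 1 rose (12.5%) and 3 fell (37.5%). The mean over the cell cycle genes was -0.51 and -0.45 labelled -Dox and -0.01 and 0.04 labelled +Dox, and over the pan-neuronal genes it was 0.37 and 0.43 labelled -Dox and -0.46 and -0.31 labelled +Dox. At day 7, where 3.08% of all genes rose and 3.84% fell, the median was 0.15 for cell cycle genes, with 2 of 9 risen. For pan-neuronal genes it was -0.77, with 10 of 12 fallen. Also at day 7, 4 of 8 ES cell genes (median 0.46) and 4 of 7 surface epithelium genes (median 0.57) rose. Of 7 mesoderm and endoderm genes 1 rose (median 0.23), and of 8 neural progenitor genes 2 rose and 3 fell. In the parental line none of these markers passed, where 0% of all genes did. Because values are centred, no marker can be read as absent from a group. The hybridisation spike-ins, which are added after labelling, stood at -0.79 and -0.66 in the day 9 arrays labelled +Dox and between -0.34 and 0.19 in the other 10, and the difference between 3′ and 5′ probe sets of Actb, a sign of RNA quality, was 0.23 and 0.20 there against 0.0 and -0.05 labelled -Dox. The part of these in the members' changes was not tested, and in a bulk sample fewer cells of a type and less RNA per cell cannot be told apart.

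The other genes of the pathways differed by list. At day 9 16.9% of all genes rose and 11.3% fell, and the counts of these lists are to be read against those shares. Of 29 mitochondrial transcription and translation factors 12 rose (41.4%) and 1 fell (3.45%), with a median of 0.18. Risen among them were Tufm (0.48) and Tsfm (0.64), the elongation factor pair that brings aminoacyl-tRNA to the ribosome, Gfm1 (0.65), which moves the ribosome along the message, and Tfb2m (0.48), which starts transcription of mitochondrial DNA. Oxa1l, which inserts the new proteins into the inner membrane, fell by 0.59. Of 16 complex I assembly factors 4 rose, among them Ndufaf1 (0.76) and Nubpl (0.68), and Ndufaf2 (-0.35) and Tmem186 (-0.30) fell. Of 39 subunits of complexes II to V 7 rose (17.9%, near the share of all genes) and 1 fell (2.56%). Their median was 0.05, and Uqcrc1 of complex III had 0.51. Of the 9 subunits outside the rule 2 rose (22.2%), Dap3 (0.25) and Gadd45gip1 (0.43), both parts of the mitochondrial ribosome.

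Cytosolic ribosomal protein genes had medians close to 0. The median was -0.02 at day 7 and -0.02 at day 9 over 44 genes. Of these 1 rose at day 7, and 4 rose (9.09%) and 1 fell (2.27%) at day 9. Glycolysis genes had 6 fallen (37.5%) and 2 risen (12.5%) of 16 at day 9, with a median of -0.24. The neuronal enolase Eno2 changed by -1.76 and Pfkp by -1.70. Of 25 genes of the stress responses 5 rose (20.0%) and 3 fell at day 9. Both shares were near those of all genes (16.9% and 11.3%). Higher were the stress-induced chromatin protein Nupr1 (1.51) and the serine and folate enzymes Shmt2 (0.69) and Mthfd2 (0.59). The chaperonin Hspd1 (0.49) and the inner membrane protease Afg3l2 (0.30) were higher too. Ddit3 (-0.64), Atf5 (-0.48) and Asns (-0.38), targets or factors of the integrated stress response, were lower. Among 10 regulators of mitochondrial biogenesis Myc rose by 1.04 at day 7 and 2.03 at day 9, Gabpa (0.68) and Pprc1 (0.44) rose at day 9, and Gabpb1 fell by 0.32. ND5 differed by -0.18 at day 7 and 0.03 at day 9 and passed in neither.

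**Figure D4:**
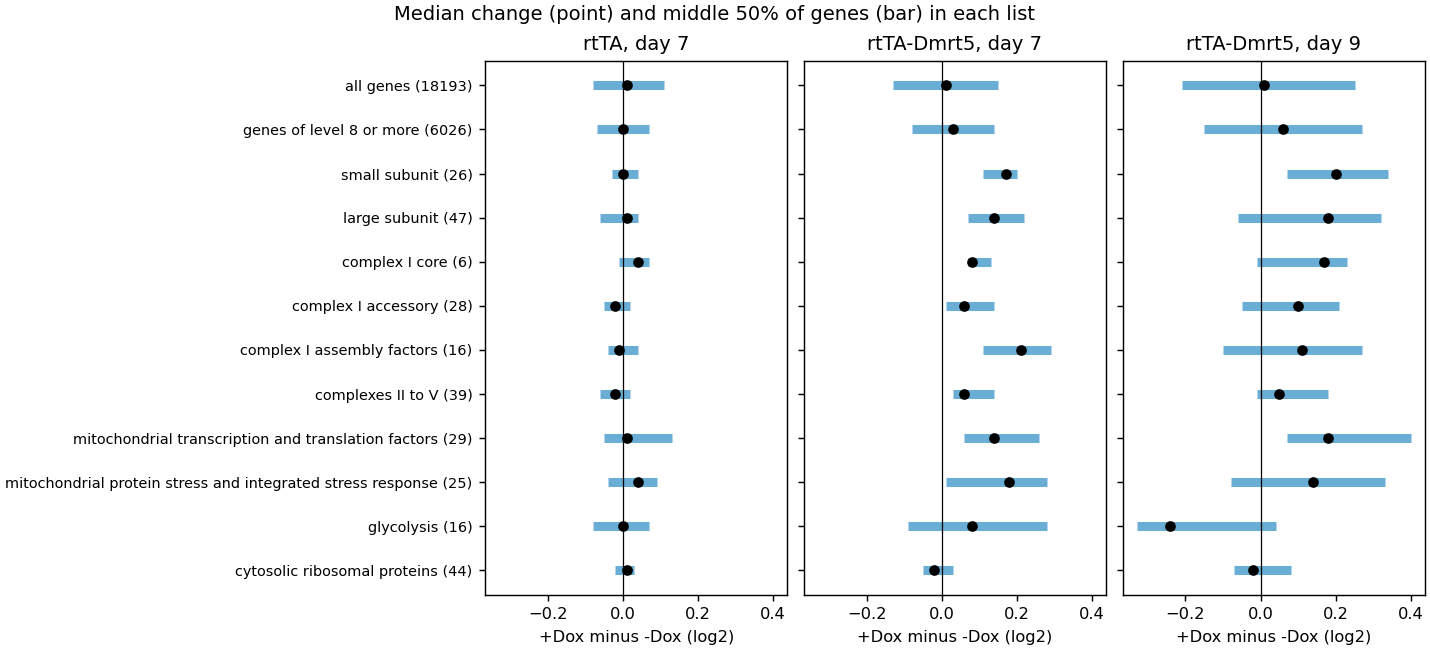
Median log2 change (points) and interquartile range (bars) in each gene list for the 3 Dox responses, with the number of genes in brackets. All list medians lie near 0 in the parental line, the small subunit stands at 0.17 and 0.20 in rtTA-Dmrt5 cells at day 7 and day 9, and the cytosolic ribosomal proteins stand at -0.02 in both.

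Time was compared within the rtTA-Dmrt5 line. Among arrays labelled -Dox the members changed little from day 7 to day 9, with a median of -0.05 and 40 of 107 above 0. None rose and 2 fell, against 7.84% and 7.09% of all genes: Mrps2 by 0.34 (limma adjusted p = 0.0214) and Mrpl44, a protein with an RNase III fold, by 0.28 (limma adjusted p = 0.0429). Mrpl44 had -0.02 and -0.05 at day 7 and -0.28 and -0.36 at day 9. The count moved with the fit: it was 7 with each probe set alone, 10 in the brightest class and 4 with array weights. Both calls were lost with only these 4 arrays in the fit, and without replicate 1 or 2 at day 7 or replicate 1 at day 9, while without replicate 2 at day 9 Mrps2 alone passed. Over the same days 4 of 9 cell cycle genes (median -0.27) and 3 of 7 surface epithelium genes (median -0.42) fell. Among pan-neuronal genes 9 of 12 rose (median 0.65), and among ES cell genes 7 of 8 rose (median 0.7). The part of these in the members was not tested.

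Among arrays labelled +Dox, 5 members rose and 4 fell from day 7 to day 9, against 9.98% and 6.18% of all genes, and the median was -0.02. The rises were Ndufa8 (0.46), Mrpl4 (0.40), Mrps34 (0.35), Ndufb9 (0.34) and Ndufs1 (0.29), and all 5 also rose in the day 9 Dox response, with which this comparison shares the day 9 arrays labelled +Dox. Ndufb9, an accessory subunit of the membrane arm, had -0.01 and 0.03 at day 7 and 0.42 and 0.29 at day 9, and the mean of its 3 probe sets did not pass (0.11, adjusted p = 0.576). Mrpl18 had the largest fall, from 0.01 and 0.09 to -0.45 and -0.48, a change of -0.52 ± 0.09 (limma adjusted p = 0.00396). Mrpl22, which lines the tunnel through which the new chain leaves, fell by 0.42, Ndufa5 by 0.37 and Mrpl55 by 0.35. Leaving out a single array gave counts from 1 (without replicate 1 at day 7) and 2 (without replicate 2 at day 7) to 9, and Mrpl18 was the only named member that passed in each of these fits. Over these days 10 of 12 pan-neuronal genes (median 0.79) and 7 of 8 ES cell genes (median 0.88) rose, the spike-ins changed by -0.55 and the 3′ to 5′ difference of Actb by 0.25, and the part of these in the members was not tested.

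The lines themselves were compared at day 7. Among arrays labelled -Dox, 8 members were higher and 17 lower in rtTA-Dmrt5 than in rtTA cells, where 15.2% and 13.4% of all genes were, and the median was -0.09 with 32 of 107 above 0. Mrpl54, a large subunit protein, had the largest difference. It was 0.64 and 0.73 in rtTA and -0.03 and -0.17 in rtTA-Dmrt5, a change of -0.78 ± 0.12 (limma adjusted p = 0.00113). Ndufa4 had 0.59 and 0.47 in rtTA and -0.17 and -0.21 in rtTA-Dmrt5 (-0.73 ± 0.15, limma adjusted p = 0.00575). Both genes also had higher values in the parental arrays labelled +Dox than in any of the 8 rtTA-Dmrt5 arrays.

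Other members lower in rtTA-Dmrt5 labelled -Dox were Mrpl20 (-0.58), Mrps36 (-0.56), Mrps5 (-0.55), Mrps11 (-0.54), Mrpl18 (-0.49), Ndufa1 (-0.48) and Mrpl46 (-0.46). Mrps11 has a dimmer probe set that differed by 0.35, and the mean of both did not pass (-0.09, adjusted p = 0.609). Members that were higher were Ndufa6 (0.46), an accessory subunit that binds the mitochondrial acyl carrier protein, Mrpl38 (0.46), Mrpl58 (0.40), a peptidyl-tRNA hydrolase built into the large subunit, Mrpl45 (0.40), Mrpl10 (0.39), which holds the stalk that Mrpl12 belongs to, and Mrpl22 (0.32). Mrpl38 rests on the brightest of its 3 probe sets, and the dimmer ones differed by -0.24 and 0.22. Mrpl58 rests on its brighter probe set, and a dimmer one differed by -0.50. All 7 large subunit rises stood beside 10 large subunit falls, and the small subunit had 0 higher and 4 lower. The count of 25 fell to 9 and 16 without replicate 1 and 2 of rtTA and to 12 and 8 without replicate 1 and 2 of rtTA-Dmrt5.

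Among arrays labelled +Dox, 11 members were higher and 5 lower in rtTA-Dmrt5, against 13.6% and 10.9% of all genes, with a median of 0.03. Mrpl10 led, at -0.28 and -0.36 in rtTA and 0.26 and 0.37 in rtTA-Dmrt5, a difference of 0.63 ± 0.10 (limma adjusted p = 0.0012). Mrpl38 (0.58), Mrpl22 (0.47), Mrpl58 (0.45), Mrpl55 (0.44) and Ndufa6 (0.43) were higher, and Mrpl54 (-0.61), Ndufa4 (-0.50), Mrps36 (-0.41), Mrpl20 (-0.34) and Mrpl18 (-0.30) were lower. The comparisons of the lines labelled -Dox and labelled +Dox share no array: 13 members passed in both, which is 52.0% of the 25 and 81.2% of the 16, and all 13 had the same sign. Over all genes the shares were 55.0% and 64.1%, and 97.1% of the genes called in both had the same sign. Leaving out replicate 2 of rtTA or replicate 1 or 2 of rtTA-Dmrt5 gave 8, 8 and 9 members. The rtTA-Dmrt5 arrays labelled -Dox enter the comparison of the lines labelled -Dox and the day 7 Dox response with opposite signs, so members low in these 2 arrays appear in both. Beside this, in rtTA-Dmrt5 labelled -Dox 7 of 9 cell cycle genes (median -0.43) and 5 of 12 pan-neuronal genes (median -0.34) were lower. Of 8 ES cell genes 7 were lower and 1 higher (median -2.34). Of 7 surface epithelium genes 3 were higher and 2 lower (median 0.22). Of 7 mesoderm and endoderm genes 3 were higher and 1 lower (median 0.21). Labelled +Dox, all 12 pan-neuronal genes were lower (median -1.23), and 7 of 8 ES cell genes were lower and 1 higher (median -1.55). There 4 of 7 surface epithelium genes were higher and 0 lower (median 1.12). For mesoderm and endoderm 4 of 7 genes were higher and 1 lower (median 1.06). The difference between 3′ and 5′ probe sets of Actb exceeded that of the parental arrays by 0.38 labelled -Dox and by 0.18 labelled +Dox, and that of Gapdh did so by 0.15 and 0.04. Their part in the members' differences was not tested.

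**Figure D5:**
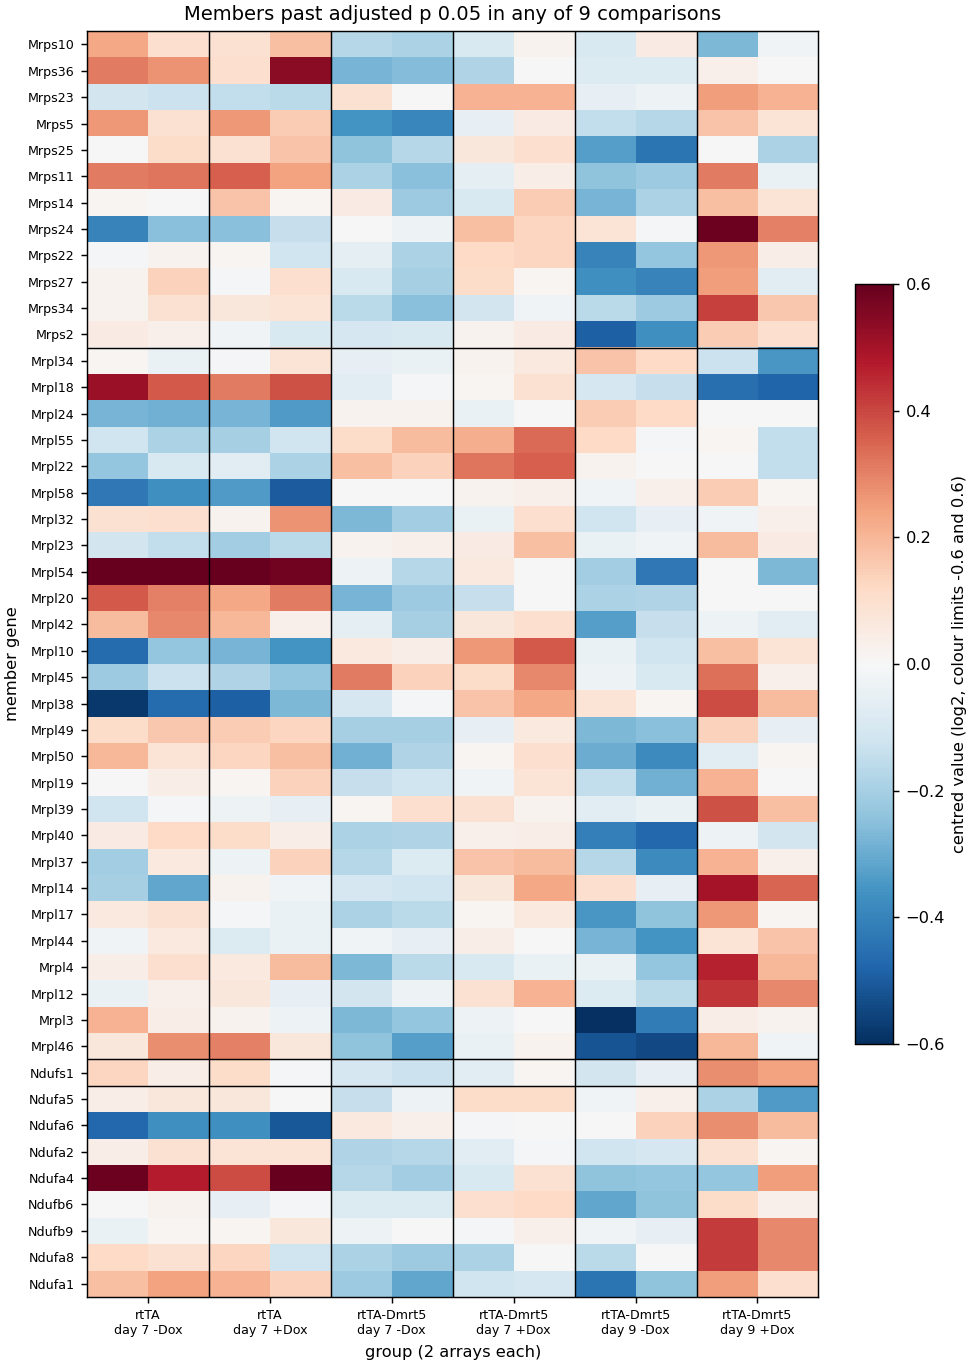
Centred log2 values in the 12 arrays (columns, 2 per group) of the 48 members past adjusted p 0.05 in at least 1 of 9 comparisons, grouped by small subunit, large subunit, complex I core and accessory subunits and ordered within each by the day 9 Dox response. Most risen members are blue (low) in the day 9 arrays labelled -Dox, and Mrpl54, Mrps36 and Ndufa4 are red (high) in the parental arrays.

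In all, 48 members (44.9%) passed in at least 1 of the 9 comparisons, against 53.2% of all genes, and 59 passed in none. Gene position was read as a feature that the choice of members did not use. Of the 95 members with a promoter, 30 (31.6%) had a start within 500 bases of the start of a gene transcribed in the opposite direction, against 10.9% of all genes and 14.5% of genes on the array. Among them 2 pairs consist of members only. Mrpl46 and Mrps11, whose starts are 41 bases apart, both rose at day 9 (0.62 and 0.36) and were both lower in rtTA-Dmrt5 labelled -Dox (-0.46 and -0.54). Mrpl47 and Ndufb5, with starts 307 bases apart, differed by -0.13 and -0.07 at day 9 and did not pass.

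Neighbours outside the members did not all move with them. Mrps27 and Ptcd2, 107 bases apart, both rose at day 9 (0.47 and 0.37). Mrpl14 rose by 0.40 while Tmem63b, 130 bases away, fell by 0.47, and Mrpl18 fell by 0.35 beside Tcp1 at 0.07. These pairs were chosen after their values were seen. Among the members matched to a promoter, the NRF1 core was in 26.1% of the 23 that rose at day 9 and 19.4% of the other 72, the ETS core in 26.1% and 27.8%, and the YY1 core in 17.4% and 9.72%.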

How the data were processed

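RNA of 12 samples was measured on Affymetrix arrays, after 5 ng of total RNA had been amplified and labelled with biotin, per the labels' protocols. Per the submitters' processing notes the authors used RMA (background correction, quantile normalization, summary per probe set); neither its version nor a genome build is given in the sources used here. Values in the deposited table are taken as log2, as RMA defines them, with larger values for more RNA; neither is stated. Each probe set is centred to a median of 0 over the arrays, within 5e-07, and medians of the arrays were -0.01 to 0.01, so quantile normalization and centring leave differences only.

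Names came from the platform annotation: 34945 probe sets with 1 symbol were used, 932 with several and 9160 with none were not. The step between the digits of single-precision values gave each probe set's class of median signal, and 20.1% were at 8 or more. A gene's value is the mean over its brightest class of probe sets, with no filter, because centred values did not allow the planned filter on dim genes. limma 3.58.1 in R 4.3.3 fitted a mean per group on all 12 arrays for 18193 genes (6 residual and 3.59 prior degrees of freedom), with 9 comparisons, and the code was tested on simulated data. Python 3.11.15 and pandas 2.3.3 read the tables. The members and lists were chosen with earlier results of these data known.

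For each comparison up to 6 rises and 6 falls were named among members past adjusted p 0.05 with separate replicates, and in the parental line the 5 smallest p. The other members past the threshold at day 9 are named as a full set, and other list genes where they passed. Alternatives were another summary of probe sets, each probe set alone, the brightest class only, 2 other array scales, array weights, a robust prior, only the groups compared, a replicate block and leaving out each array. Same-numbered replicates share no pairing in the labels, and their deviations correlated at 0.02, -0.05 and 0.11.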

Additional observations from a re-analysis of the deposited data

Results flagged for a closer look

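Dmrta2, the gene whose other name the transgene carries, was flagged because its Dox response differed between the lines: the rtTA-Dmrt5 response minus the rtTA response at day 7 was -2.52 ± 0.47 (limma adjusted p = 0.021). Its values were 1.91 and 1.85 in rtTA-Dmrt5 labelled -Dox and -0.14 and -0.95 labelled +Dox, and -0.22 and 0.14 in rtTA labelled -Dox and 0.41 and -0.28 labelled +Dox. None of the mitochondrial ribosome and complex I genes named met this criterion.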

How the results depend on the processing

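For the Dox response of rtTA cells, 0 members passed under each alternative. At day 7 in rtTA-Dmrt5, the count of 1 became 0 with each probe set alone, with only the groups compared and with a replicate block, 2 in the brightest class and 3 with array weights, and 0 to 0 when an array was left out, with medians of 0.09 to 0.14. At day 9 the count of 31 was 6 with only the groups compared and 12 to 35 without an array. Its median of 0.16 was 0.13 with each probe set alone, 0.12 with arrays scaled on the brightest class and 0.11 to 0.21 without an array. The difference between lines had medians of 0.10 to 0.15 without an array. For the difference between days the count of 0 was 6 in the brightest class, and the median lay between -0.05 and 0.08 without an array. From day 7 to day 9 among arrays labelled -Dox, 2 became 7 with each probe set alone, 10 in the brightest class, 4 with array weights, 0 with only the groups compared, 0 with a replicate block and 0 to 1 without an array. Among those labelled +Dox, 9 became 24 in the brightest class, 1 with only the groups compared, 3 with a replicate block and 1 to 9 without an array, with medians of -0.07 to 0.03. Between the lines labelled -Dox, 25 became 38 with each probe set alone, 41 in the brightest class and 8 to 16 without an array. Labelled +Dox, 16 became 8 with only the groups compared, 10 with a replicate block and 8 to 12 without an array. Mrpl58 reversed with the mean of all its probe sets, to -0.05 labelled -Dox and -0.01 labelled +Dox, since its dimmer probe set differs in sign. The brightest class tests fewer genes, and leaving an array out fits fewer samples; other causes were not tested. Of 580 refits of named members 460 kept their side of the threshold, 118 lost it and 2 reversed. The replicate block gave 23 members at day 9; labels give no pairing by number. The centring leaves signal over background unknown beyond the class, and a lone array left in a group was assumed to vary like the others.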
